A study of Mus musculus with 84 samples.

Results

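The genes described here are 67 potassium channel genes measured in mice that drank ethanol by choice, in the central amygdala (CeA), whose neurons are largely GABAergic. They were chosen by name and by level. Of 99 genes in the count table whose symbol starts with Kcn, 10 were left out by name: Kcnma1, Kcnmb4, Kcnn1, Kcnn2, Kcnn3, Kcnj3, Kcnj6, Kcnj9, Kcnj13 and Kcnq1ot1. Of the other 89, the 67 with a median CPM of at least 1 (CPM scales each count to the total of its library) over all 84 libraries were kept, out of 43629 genes in the table. Just inside that threshold lay Kcnd3os with a median of 1.12 CPM and Kcne4 with 1.13, and just outside lay Kcnh8 with 0.867. The other genes among the 22 under the threshold included 7 with a median of 0, namely Kcna7, Kcnab3os, Kcne1, Kcnj1, Kcnk16, Kcnk18 and Kcnmb3. Kcne2, an accessory subunit gene known from choroid plexus epithelium, had a median of 0.235 CPM and reached 84.4 CPM in 1 library; it was named after its values were seen.

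The 84 animals came from a genetically mixed stock, the HS-CC (Heterogeneous Stock Collaborative Cross), and were 43 females and 41 males, with a median age of 15 weeks when testing began. All of them chose between water and 10% ethanol for 13 weeks, so that exposure was shared by every group and no ethanol-free animal is compared here, and each gave 1 poly(A)-selected library from CeA tissue cut by laser from thionin-stained frozen sections. Preference, the ethanol solution's share of all fluid drunk, ran in week 13 from 0.043 to 0.745 with a median of 0.273 in females, and from 0.022 to 0.684 with a median of 0.142 in males. Animals had been picked to balance sex and quartile of preference, and the study related expression to preference in week 1, in week 13 and over all weeks, first in all animals and then in each sex.

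Potassium channels let potassium leave the cell, which holds the resting potential and ends the action potential. Voltage-gated (Kv) channels are built from 4 alpha subunits around 1 pore, and cytoplasmic beta subunits, calcium-binding Kv channel interacting proteins (KChIPs) and small KCNE proteins attach to them and change their gating. Inward rectifiers and two-pore leak channels set the resting conductance of neurons and glia. In CeA neurons these currents shape the delay to the first spike and the adaptation of firing.

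Promoter windows are printed for 5 members, picked after their values were seen as examples of relations with striatal, cortical and astrocyte marker genes among members with a single window; other members had larger correlations. The RefSeq promoter table, on build GRCm38.p6, matched 46 of the 67 members by symbol, with 67 windows. Only the 250 bases before each annotated start were used. For 39 of the 67 member windows the next 30 bases open a transcript of the GENCODE annotation, as for 15384 of all 32851 windows. Other windows may not belong to a counted transcript. The Kcna5 window lies inside the counted Kcna5 gene (chr6:126532553-126698192, minus strand), not at its outer end. Capitals mark the GC box GGGCGG, or CCGCCC where it lies on the other strand, and the E-box CACGTG, both searched on both strands, and neither motif overlaps the other. The windows are those of Kcnd2 (chr6:21215096-21215345, plus strand), Kcnj2 (chr11:111065914-111066163, plus strand) and Kcna5 (chr6:126535556-126535805, minus strand), which varied with striatal marker genes. Kcnk4 (chr19:6934516-6934765, minus strand) varied with cortical marker genes and Kcnj10 (chr1:172340960-172341209, plus strand) with astrocyte marker genes. All 5 run 5′ to 3′ on the strand of the gene.
Kcnd2 promoter: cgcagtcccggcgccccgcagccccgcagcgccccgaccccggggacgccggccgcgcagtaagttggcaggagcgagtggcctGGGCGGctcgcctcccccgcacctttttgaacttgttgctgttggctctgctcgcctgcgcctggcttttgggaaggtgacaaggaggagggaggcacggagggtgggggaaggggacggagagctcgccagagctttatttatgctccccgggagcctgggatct
Kcnj2 promoter: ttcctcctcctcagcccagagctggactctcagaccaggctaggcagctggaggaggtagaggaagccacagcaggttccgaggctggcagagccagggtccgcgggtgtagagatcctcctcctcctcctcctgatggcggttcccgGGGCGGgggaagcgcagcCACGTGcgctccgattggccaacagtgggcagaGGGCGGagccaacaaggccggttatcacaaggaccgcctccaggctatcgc
Kcna5 promoter: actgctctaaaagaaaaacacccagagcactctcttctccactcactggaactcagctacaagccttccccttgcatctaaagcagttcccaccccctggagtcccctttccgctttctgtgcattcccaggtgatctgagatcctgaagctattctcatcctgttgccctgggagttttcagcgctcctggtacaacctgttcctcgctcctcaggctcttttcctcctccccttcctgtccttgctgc
Kcnk4 promoter: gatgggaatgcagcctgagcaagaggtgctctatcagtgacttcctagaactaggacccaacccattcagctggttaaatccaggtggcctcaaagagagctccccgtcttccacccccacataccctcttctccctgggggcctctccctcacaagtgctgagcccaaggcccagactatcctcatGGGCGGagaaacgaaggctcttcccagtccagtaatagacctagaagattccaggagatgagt
Kcnj10 promoter: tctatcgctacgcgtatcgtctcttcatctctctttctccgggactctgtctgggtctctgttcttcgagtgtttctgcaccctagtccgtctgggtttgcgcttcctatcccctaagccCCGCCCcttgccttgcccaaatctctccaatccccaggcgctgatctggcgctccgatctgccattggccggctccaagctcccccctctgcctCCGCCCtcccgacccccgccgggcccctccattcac
The Kcnj2 window held 2 GC boxes and 1 E-box, the Kcnj10 window 2 GC boxes, the Kcnd2 and Kcnk4 windows 1 each, and the Kcna5 window no match to these letters. Over all members, 46.3% of the 67 windows held a GC box, against 32.7% of all 32851 windows of the same length, and 7.46% against 6.02% held the E-box. TATAAA was present in 1.49% of member windows against 12.4% of all windows, and TGACGTCA, the cAMP response element, in 0 against 1.55%. The median GC content was 59.2% for members and 52.4% for all windows. These are counts of letters and say nothing of binding.

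Libraries held 24118965 to 42036566 counts, with a median of 31573088.5, and all 67 members had a count in every library, the lowest being 9. The CeA identity of the tissue was checked against 13 marker genes, all of them measured. The general GABAergic marker Gad1 ran from 308 to 1029 CPM with a median of 495, and Sst from 231.9 to 579.9. Several markers more particular to the CeA were lower. Their median was 18.4 CPM for Prkcd, 6.83 for Crh, 20.9 for Tac2, 22.6 for Nts and 21.6 for Cartpt. Others on the list stood above these, with medians of 40.53 CPM for Dlk1, 55.41 for Pdyn, 65.17 for Tac1 and 314.1 for Ppp1r1b. The excitatory marker Slc17a7 had a median of 1354 CPM. The summed level of the 13 CeA genes had a median of 2129 CPM in females and 2104 in males, below that of the 13 cortical and basolateral amygdala excitatory neuron genes, 3909 and 3736. Marker CPM are not scaled for gene length, so such comparisons depend on gene length and on the genes listed. Markers of neighbouring regions were present too: the summed level of 12 measured genes of striatal medium spiny neurons ran from 849 to 7683 CPM, that of the cortical and basolateral list from 411 to 6426 CPM, and that of 12 choroid plexus genes from 118 to 29351 CPM. In tissue of mixed cells, fewer cells of a type and less RNA per cell cannot be told apart. Sample-sheet numbers fall into 4 runs, in which females number 9, 9, 10 and 15 and males 9, 9, 7 and 16, and within-run values are given for relations with marker scores over all animals and for pairs. For preference and sex, fits with the run as a covariate are given in place of within-run values, and within the clusters of a score no within-run value was computed.

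The members' levels, per kilobase of exon on a TMM-scaled CPM scale, spanned 178.5-fold between the lowest and the highest median. The 10 highest members held 54.5% of the summed level of all 67. Levels per kilobase are used wherever members are compared with each other. CPM is used for the threshold, for marker genes, for overlapping genes and wherever 1 gene is compared between animals.

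**Figure D1:**
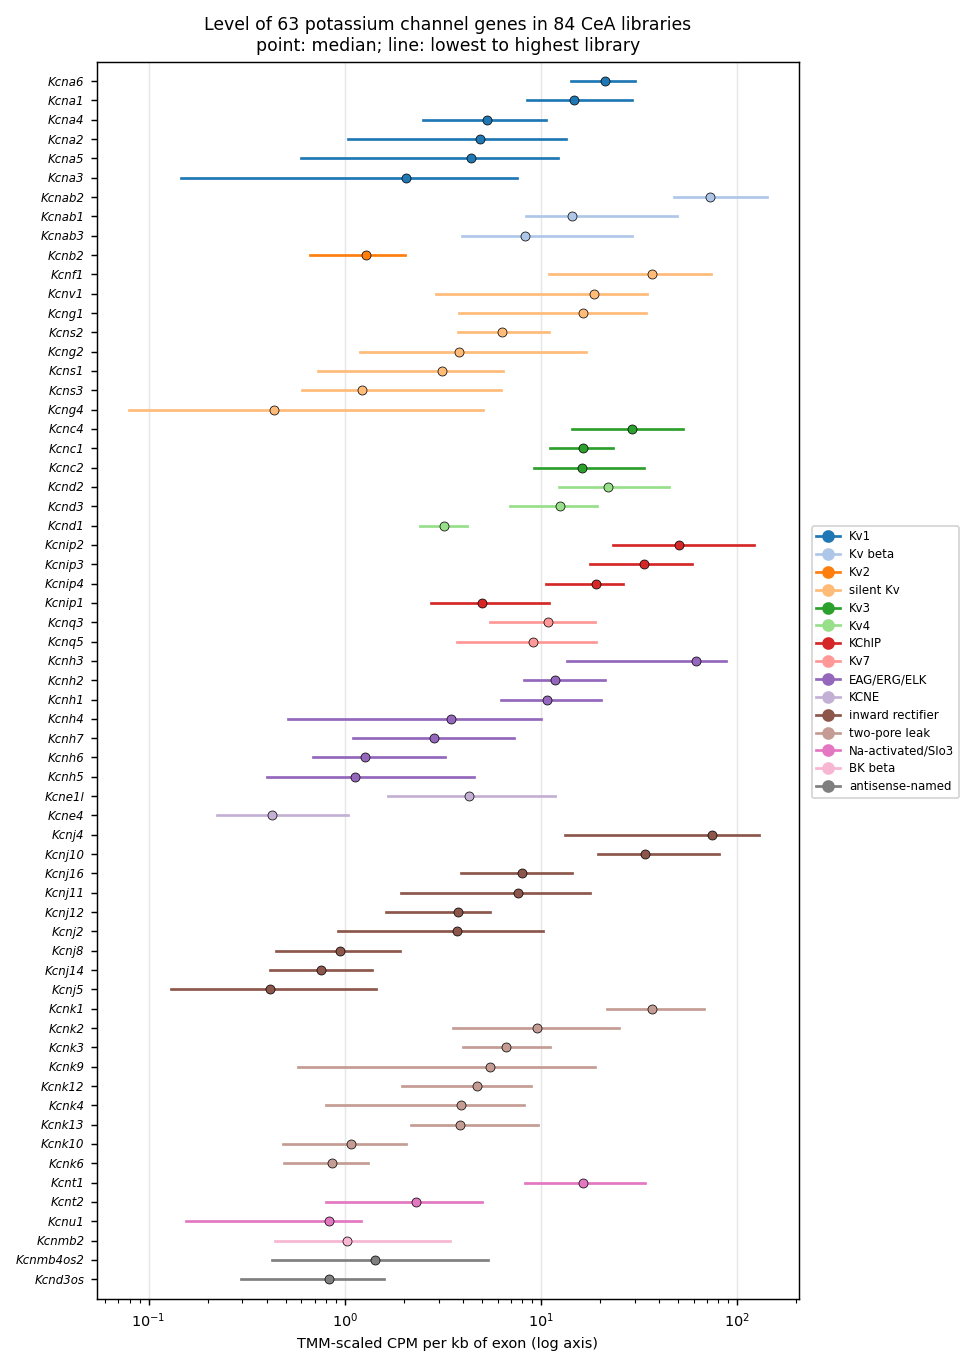
Median (point) and lowest to highest library (line) of each of 63 members in 84 libraries, as TMM-scaled CPM per kilobase of exon on a log axis, coloured by channel family. Medians run from 0.417 for Kcnj5 to 74.5 for Kcnj4, and the lines of Kcng4 and Kcna3 are among the longest.

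Among the alpha subunits of the Kv1 group, the low-threshold channels of axons, Kcna6 was highest with a median of 21.1 CPM per kb, and Kcna1 followed with 14.6. Kcna4, whose channel inactivates quickly, had 5.28, Kcna2 4.91, Kcna5 4.37 and Kcna3 2.05. The ranges of Kcna4 (2.49 to 10.6), Kcna2 (1.04 to 13.4) and Kcna5 (0.595 to 12.1 CPM per kb) overlapped, so their order is not resolved. Of the beta subunits that bind Kv1 channels, Kcnab2, which helps to place Kv1 channels in axons, had a median of 72.4 CPM per kb, the second highest of all members. Kcnab1, which gives Kv1 channels fast inactivation, had 14.4 and Kcnab3 8.29.

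The A-type channels of dendrites pair Kv4 alpha subunits with KChIPs. Kcnd2 had a median of 21.8 CPM per kb, Kcnd3 12.4 and Kcnd1 3.20. Of the KChIP genes, Kcnip2 stood at 50.5, Kcnip3 at 33.6, Kcnip4 at 19.1 and Kcnip1 at 5.00, and the 4 together held 12.9% of the members' summed level against 4.46% for the 3 Kv4 alpha genes. Kcnd3os, named as antisense to Kcnd3, had a median of 0.832. It shares exon bases with Kcnd3 on the other strand, and the strand setting of the counting is not given in the sources used here, so reads there cannot be told apart.

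Kcnb2, a Kv2 delayed rectifier, had 1.27 CPM per kb. The 8 electrically silent Kv genes, whose products carry no current alone and join Kv2 channels, held 10.3% of the summed level. Kcnf1 led them with 36.7, ahead of Kcnv1 (18.6) and Kcng1 (16.3), with Kcns2 at 6.31, Kcng2 at 3.81, Kcns1 at 3.12 and Kcns3 at 1.22, and Kcng4 was lowest with 0.435. Of the Kv3 genes, which allow fast spiking, Kcnc4 had a median of 29.1 CPM per kb, Kcnc1 16.4 and Kcnc2 16.1. The Kcnc1 and Kcnc2 medians differ by far less than their ranges of 11.1 to 23.2 and 9.15 to 33.3. Kcnq3, a subunit of the M-channel that damps repeated firing, had 10.9 and Kcnq5 9.10.

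In the EAG, ERG and ELK family, Kcnh3, an ELK channel of forebrain neurons, was highest of the 7 genes with 61.6 CPM per kb. Kcnh2 (11.8) and Kcnh1 (10.7) were next, and Kcnh4, Kcnh7, Kcnh6 and Kcnh5 lay between 1.13 and 3.46. Kcnh7 shares 696 exon bases with Gca on the other strand. The 2 KCNE genes, Kcne1l and Kcne4, were low, with medians of 4.27 and 0.427.

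The 9 inward rectifiers held the largest share of the summed level of any of the families compared, 15.9%. Kcnj4, a strong rectifier of forebrain neurons, had the highest median of all members, 74.5 CPM per kb, with a range of 13.2 to 128.8 that covers the whole range of Kcnh3 (13.6 to 87.9). Kcnj10, the channel by which astrocytes take up potassium, had 34.01, and its partner Kcnj16 7.97. Kcnj11 and Kcnj8, the pores of ATP-sensitive channels, had 7.62 and 0.943. The strong rectifiers Kcnj12, Kcnj2 and Kcnj14 had 3.76, 3.75 and 0.758, and Kcnj5, a G-protein-gated pore, was the lowest member with 0.417.

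Of the 9 two-pore leak channels, Kcnk1 was highest with 36.9 CPM per kb. Kcnk2, opened by stretch and lipids, had 9.49, and its relatives Kcnk4 and Kcnk10 3.93 and 1.08. The acid-sensitive Kcnk3 and Kcnk9 had 6.60 and 5.49, Kcnk12 and Kcnk13 had 4.72 and 3.84, and Kcnk6 0.858. Kcnt1 and Kcnt2, sodium-activated channels, had 16.3 and 2.31, Kcnu1, known from sperm, 0.832, and Kcnmb2, a subunit that inactivates BK channels, 1.02. Kcnmb4os2, with 1.43 CPM per kb or 2.89 CPM, shares 693 exon bases on the other strand with Kcnmb4, whose median was 48.9 CPM.

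The members varied more between animals than most genes of like level. Spread was measured as edgeR's biological coefficient of variation (BCV), whose median was 0.286 over members and 0.217 over all 16320 genes tested. Each member was ranked among the 500 genes nearest to it in level. There, 58 of the 67 had a BCV above the middle of their ranking and 20 stood at or above its 90th percentile.

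Among the steadiest members were Kcnd1 (BCV 0.116), Kcna6 (0.161), Kcnip4 (0.170) and Kcnc1 (0.190). Kcnd1 ran from 12.9 to 21.5 CPM with a median of 16.98 in females and 12.7 to 22.2 CPM with a median of 16.8 in males. The female and male ranges covered nearly the same levels.

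The most variable were Kcng4 (0.797), Kcna3 (0.650), Kcnk9 (0.590), Kcnj5 (0.578) and Kcnh5 (0.569). Kcng4, a silent subunit, ran from 0.330 to 19.2 CPM with a median of 1.71 in females and 0.302 to 9.19 CPM with a median of 1.47 in males. Female replicate 15 stood at 19.2 CPM, 11.6 times the median of all animals, and the next library, female replicate 19, at 10.8. In 3 other members the highest library also exceeded 4 times the median: Kcns3 and Kcng2 in male replicate 18, with 19.1 and 50.6 CPM, and Kcnh5 in female replicate 27, with 18.5 CPM.

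To describe what the members varied with, each one's log2 CPM was set against 10 marker scores, the mean z-score of a list's genes in each library. Of the 536 relations with the 8 lists whose scores had no gap between animals, 267 passed both Pearson's and Spearman's permutation tests at an adjusted p under 0.05, and 66 of the 67 members passed with at least 1 list, the exception being Kcnu1. Such relations were not computed for other genes, so no share of all genes stands beside these counts or those per list below. The counts are therefore not read as a trait of channel genes. The scores are related, with r = 0.732 between the astrocyte and oligodendrocyte precursor scores. Over all animals the cortical score had r = -0.806 with the thalamic, hypothalamic and medial amygdala score and -0.667 with the precursor score. A member can therefore follow several lists at once, or rise with 1 score and fall with another, and such relations are not separate. For each of the named relations with these 8 lists in the next paragraphs, the permutation p of r was at most 8e-05 before adjustment, and where it was 1e-05 that is the smallest value 100000 orders can give. Adjusted over all 670 relations, p was between 5.54e-05 and 0.000317 for r and between 5.93e-05 and 0.00131 for rho.

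**Figure D2:**
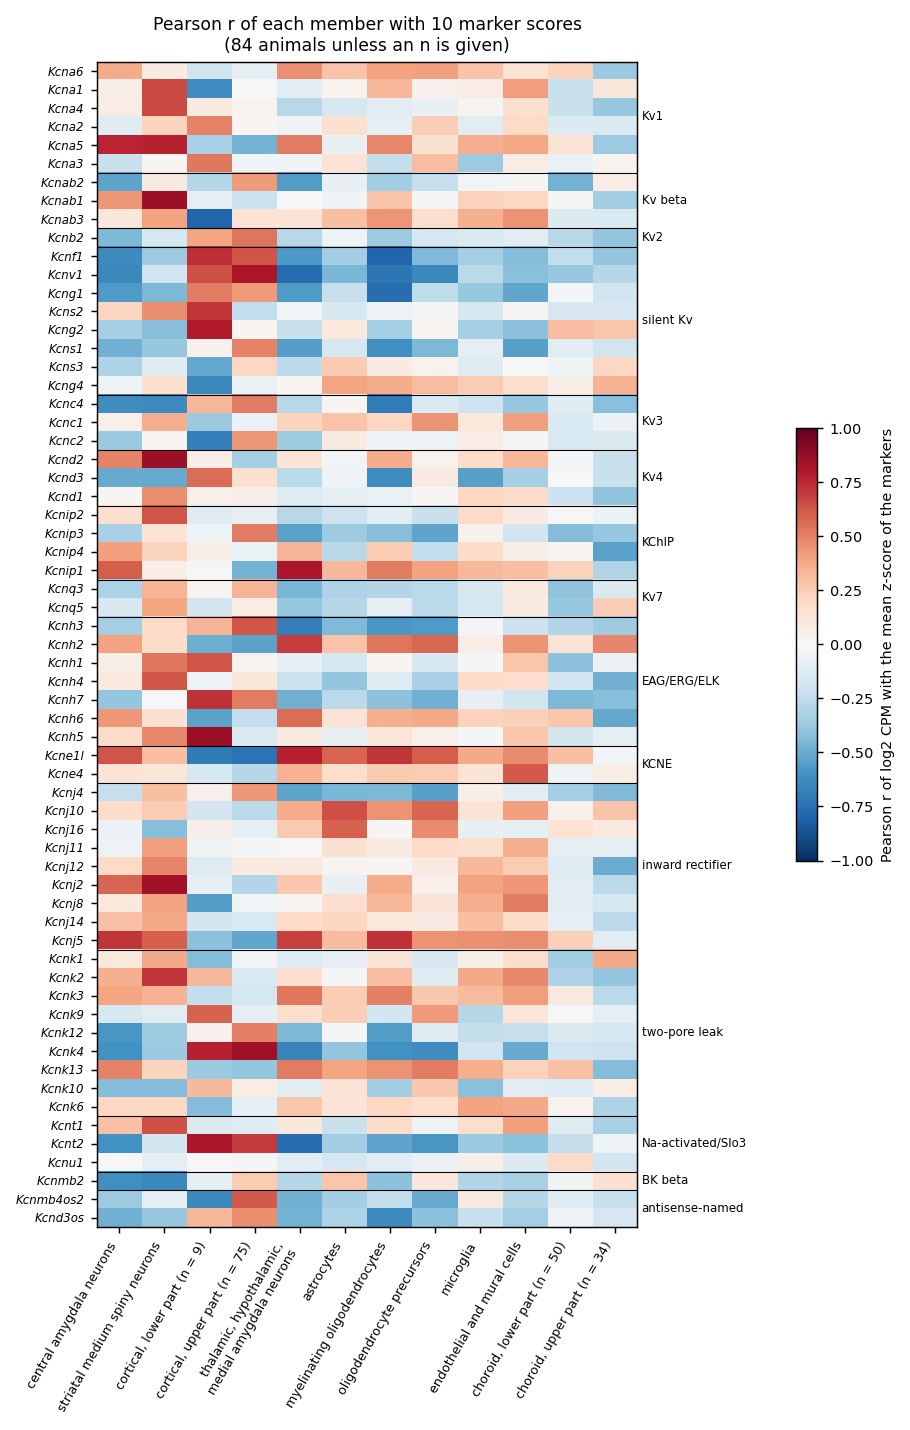
Pearson r across animals of the log2 CPM of 63 members with each marker score, from -1 (blue) to 1 (red), with families separated by lines; the cortical and choroid plexus scores, which fall into separate clusters of animals, are shown within each cluster. The column for striatal neurons is darkest red for Kcnd2, Kcnab1 and Kcnj2, and the upper cortical column for Kcnk4 and Kcnv1.

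With the striatal score 39 members passed, 27 rising and 12 falling. The Kv4 gene Kcnd2, the beta subunit gene Kcnab1 and the rectifier gene Kcnj2 followed it most closely. Kcnd2 ran from 63.7 to 204.2 CPM with a median of 113 in females and 76.3 to 231 CPM with a median of 111 in males, and it varied with the score with r = 0.854, rho = 0.819, r = 0.824 without the 2 animals of most extreme score, 0.753 to 0.897 within the 4 runs. Kcnab1 ran from 74.9 to 336 CPM with a median of 129.8 in females and 71.7 to 424 CPM with a median of 123 in males, with r = 0.854, rho = 0.763, r = 0.822 without the 2 animals of most extreme score, 0.714 to 0.913 within the 4 runs. Kcnj2 ran from 9.37 to 45.4 CPM with a median of 21.8 in females and 5.03 to 55.7 CPM with a median of 19.5 in males, with r = 0.844, rho = 0.85, r = 0.822 without the 2 animals of most extreme score, 0.844 to 0.883 within the 4 runs. For all 3 genes r was above 0.7 in each of the 4 runs.

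The CeA score had 41 members, 16 rising and 25 falling. Kcna5, a Kv1 subunit, and Kcnj5 rose with it most closely. For Kcna5 the values were r = 0.765, rho = 0.786, r = 0.763 without the 2 animals of most extreme score, 0.583 to 0.878 within the 4 runs, and for Kcnj5 r = 0.717, rho = 0.717, r = 0.696 without the 2 animals of most extreme score, 0.545 to 0.907 within the 4 runs. Kcnv1 fell, with r = -0.642, rho = -0.675, r = -0.65 without the 2 animals of most extreme score, -0.726 to -0.456 within the 4 runs. The CeA and striatal scores rose together, with r = 0.613 between them, and Kcna5 also rose with the striatal score, with r = 0.77, rho = 0.803, r = 0.765 without the 2 animals of most extreme score, 0.716 to 0.861 within the 4 runs.

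The cortical score left a group of 9 libraries well under the other 75, so r is given within each. In the 75, 26 members passed both tests, 19 rising and 7 falling. Kcnk4, a stretch-gated leak channel, ran from 1.38 to 13.5 CPM with a median of 6.77 in females and 2.99 to 14.05 CPM with a median of 6.55 in males, with r = 0.846 (rho = 0.851, r = 0.831 without the 2 most extreme) in the 75 animals of the upper part and r = 0.771 in the 9 of the lower part. For Kcnv1, a silent subunit, they were r = 0.817 (rho = 0.794, r = 0.804 without the 2 most extreme) in the 75 animals of the upper part and r = 0.647 in the 9 of the lower part, and for Kcnt2 r = 0.7 (rho = 0.696, r = 0.683 without the 2 most extreme) in the 75 animals of the upper part and r = 0.813 in the 9 of the lower part. Kcne1l had r = -0.74 (rho = -0.747, r = -0.711 without the 2 most extreme) in the 75 animals of the upper part and r = -0.709 in the 9 of the lower part. In the 75 animals the permutation p of r was 1e-05 for each of these 4, the smallest the orders can give, and 0.000223 after adjustment over 268 relations. In the 9, only Kcnh5 passed, at r = 0.859 with an exact permutation p of 0.00131 and an adjusted p of 0.0125. Without the 2 most extreme of the 9 it was r = 0.637.

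**Figure D3:**
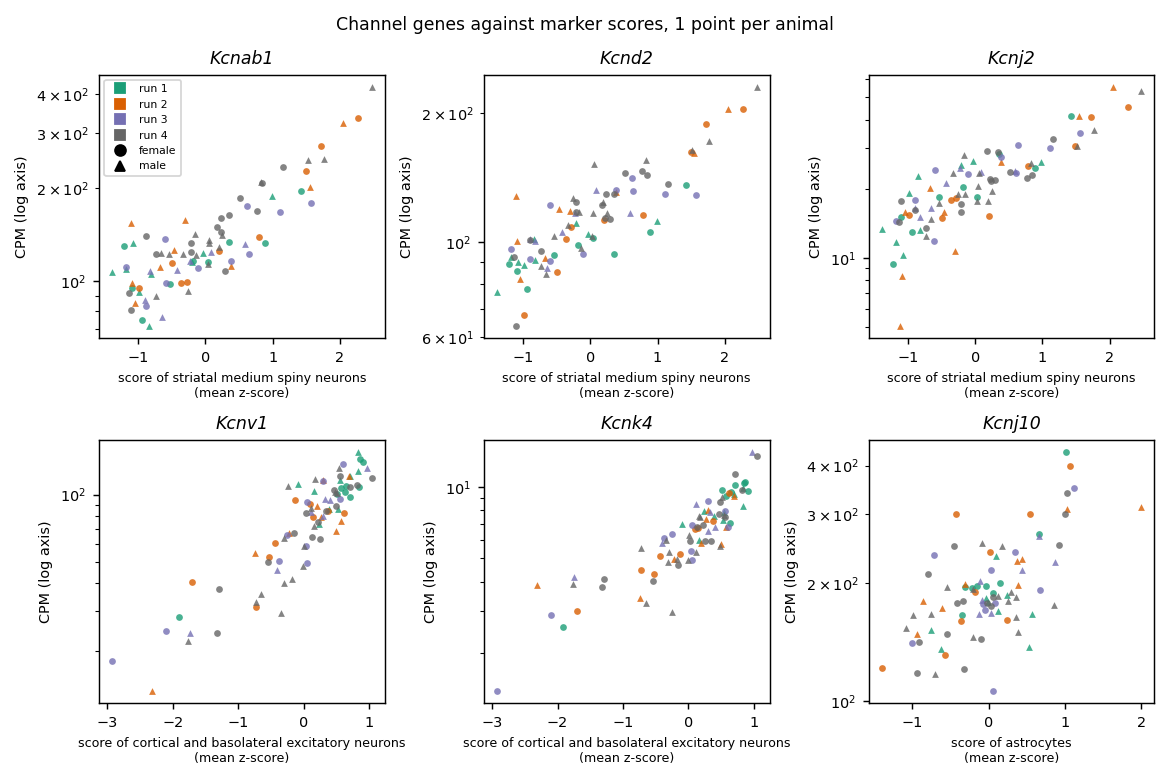
CPM on a log axis against marker score for 6 members, 1 point per animal, coloured by run of sample-sheet numbers, with circles for females and triangles for males. Kcnab1, Kcnd2 and Kcnj2 rise along the striatal score, Kcnv1 and Kcnk4 rise within the upper cluster of the cortical score, and Kcnj10 rises more loosely along the astrocyte score.

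Kcnip1, the KChIP of many inhibitory neurons, rose most with the score of thalamic, hypothalamic and medial amygdala neurons, with r = 0.811, rho = 0.799, r = 0.784 without the 2 animals of most extreme score, 0.736 to 0.855 within the 4 runs. Kcne1l rose with the same score, with r = 0.779, rho = 0.767, r = 0.762 without the 2 animals of most extreme score, 0.702 to 0.828 within the 4 runs, and Kcnv1 fell, with r = -0.771, rho = -0.729, r = -0.739 without the 2 animals of most extreme score, -0.805 to -0.705 within the 4 runs. With the score of myelinating oligodendrocytes, the 2 silent subunit genes Kcnf1 and Kcng1 fell and Kcnj5 rose. For Kcnf1 the values were r = -0.789, rho = -0.775, r = -0.768 without the 2 animals of most extreme score, -0.803 to -0.668 within the 4 runs. For Kcng1 and Kcnj5 they were r = -0.759, rho = -0.726, r = -0.736 without the 2 animals of most extreme score, -0.755 to -0.706 within the 4 runs, and r = 0.723, rho = 0.693, r = 0.689 without the 2 animals of most extreme score, 0.598 to 0.887 within the 4 runs. With the oligodendrocyte precursor score Kcnv1 fell, with r = -0.642, rho = -0.567, r = -0.615 without the 2 animals of most extreme score, -0.726 to -0.613 within the 4 runs. Kcnk4, the leak channel, fell with it too, with r = -0.62, rho = -0.559, r = -0.526 without the 2 animals of most extreme score, -0.724 to -0.614 within the 4 runs. Kcne1l, the KCNE subunit, rose, with r = 0.606, rho = 0.575, r = 0.572 without the 2 animals of most extreme score, 0.465 to 0.735 within the 4 runs.

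The score of myelinating oligodendrocytes had 44 members, that of their precursors 28, that of endothelial and mural cells 32 and the astrocyte score 24, and Kcnj10 and Kcnj16, the pair of astrocyte potassium uptake, were first and second among those of the astrocyte score. Kcnj10 ran from 106 to 434 CPM with a median of 190.3 in females and 117 to 313 CPM with a median of 182 in males, with r = 0.644, rho = 0.552, r = 0.61 without the 2 animals of most extreme score, 0.562 to 0.78 within the 4 runs. For Kcnj16 the values were r = 0.589, rho = 0.504, r = 0.521 without the 2 animals of most extreme score, 0.432 to 0.663 within the 4 runs, and Kcne1l was the next, with r = 0.583, rho = 0.565, r = 0.627 without the 2 animals of most extreme score, 0.473 to 0.717 within the 4 runs. With endothelial and mural cell markers, Kcne4 rose, with r = 0.61, rho = 0.613, r = 0.62 without the 2 animals of most extreme score, 0.27 to 0.732 within the 4 runs. The silent subunit Kcns1 fell, with r = -0.544, rho = -0.478, r = -0.471 without the 2 animals of most extreme score, -0.678 to -0.13 within the 4 runs, and Kcng1 fell, with r = -0.521, rho = -0.478, r = -0.485 without the 2 animals of most extreme score, -0.642 to -0.389 within the 4 runs. Kcnj8, the ATP-sensitive pore of mural cells, rose, with r = 0.514, rho = 0.522, r = 0.492 without the 2 animals of most extreme score, 0.333 to 0.688 within the 4 runs. With microglia, 19 members passed, led by Kcnd3, which fell, with r = -0.539, rho = -0.529, r = -0.491 without the 2 animals of most extreme score, -0.629 to -0.528 within the 4 runs. Kcnj5 rose, with r = 0.455, rho = 0.416, r = 0.391 without the 2 animals of most extreme score, 0.151 to 0.666 within the 4 runs, and Kcnk10 fell, with r = -0.417, rho = -0.384, r = -0.396 without the 2 animals of most extreme score, -0.681 to -0.281 within the 4 runs.

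The choroid plexus score also split the libraries, 50 under and 34 over a gap. Within the 50, 7 members passed both tests, all falling, and within the 34 only Kcnip4 did, falling with r = -0.534 and rho = -0.449 (permutation p = 0.00106, adjusted p = 0.0109), and r = -0.461 without the 2 most extreme. Kcnk2, Kcng2 and Kcnk3 did not pass within either cluster: for Kcnk2, r was -0.311 in the 50 and -0.386 in the 34, for Kcng2 0.305 and 0.279, and for Kcnk3 0.088 and -0.273.

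Members were then set against each other. Of 2211 pairs, 962 passed both tests, 699 with r above 0 and 263 below. For 8 pairs r was at least 0.8 in size, and all 8 were positive. Pairs of other genes were not tested, so these counts do not show whether members vary together more than other genes do. The closest pair was Kcnk9 and Kcna3, an acid-sensitive leak channel and a Kv1 subunit, with r = 0.904 and rho = 0.897, with r from 0.816 to 0.935 within the 4 runs and 0.881 without the 2 most extreme animals. Kcnh3 and Kcnj4, the highest of their families, had r = 0.903 and rho = 0.877, with r from 0.744 to 0.943 within the 4 runs and 0.86 without the 2 most extreme animals. For Kcnj2 and Kcna5 they were r = 0.859 and rho = 0.833, with r from 0.763 to 0.936 within the 4 runs and 0.831 without the 2 most extreme animals. Kcnab1, a beta subunit gene, and Kcnd2, a Kv4 gene, had r = 0.854 and rho = 0.793. Their r ran from 0.643 to 0.921 within the 4 runs and was 0.818 without the 2 most extreme animals. For these 4 pairs both permutation p-values were 1e-05, the smallest the orders can give, and 6.01e-05 (r) and 6.66e-05 (rho) after adjustment over all pairs.

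Neighbouring genes did not always vary together. There were 6 pairs of members within 250000 bases of each other. Kcna2 and Kcna3, 63437 bases apart, rose together, with r = 0.761 and rho = 0.825, with r from 0.662 to 0.896 within the 4 runs and 0.775 without the 2 most extreme animals. Kcnj16 and Kcnj2, 38195 bases apart, ran in opposite directions, with r = -0.408 and rho = -0.362, with r from -0.587 to 0.156 within the 4 runs and -0.268 without the 2 most extreme animals. In run 1 that pair was positive. Kcna1 and Kcna6, in the same cluster as Kcna5, had r = -0.038 and rho = -0.037, with r from -0.277 to 0.155 within the 4 runs and -0.0031 without the 2 most extreme animals. The remaining pairs were positive and passed both tests. Kcna1 and Kcna5 had r = 0.274 and rho = 0.289, and Kcna6 and Kcna5 r = 0.266 and rho = 0.292. Kcnd3 and Kcnd3os, which share exon bases, had r = 0.357 and rho = 0.335. Without the 2 most extreme animals r was 0.217, 0.218 and 0.377.

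Preference was then related to each member, as the log2 change per 0.5 rise in preference ± SE, in edgeR's quasi-likelihood fit over all 16320 genes with Benjamini-Hochberg adjustment. In none of the 9 preference comparisons did a member pass at an adjusted p under 0.05, so slopes are given as measured and none is called a change. With mean preference in all animals, 0.0% of all genes passed, 0 members had an unadjusted p under 0.05 against 3.94% of genes, and DESeq2 and limma-voom called 0 members. Slopes were below 0 for 48 of 67 members, with a median of -0.041, where all genes had a median of -0.0016. Of all genes, 49.25% had a slope above 0. Members with slopes above 0 numbered 19 in this fit and 18 to 30 over the alternatives. The highest counts came with limma-voom (27), the run as a covariate (28) and ethanol intake in place of preference (30). Many members vary together, so their signs are not independent of each other. Kcna5 had the lowest slope, -0.47 ± 0.24 (edgeR, adjusted p = 0.9995), and Kcnj2 followed with -0.37 ± 0.21. The slopes of Kcnj12, Kcnk13 and Kcne1l, next in order of p, were -0.19 ± 0.13, -0.21 ± 0.14 and -0.29 ± 0.20.

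In females, 0 members passed with mean preference (0.0% of genes; 0 by DESeq2 and by limma-voom), and 3 had an unadjusted p under 0.05, or 4.48%, against 6.95% of all genes. All 3 slopes were below 0, as were 2.02% of all genes at that p, and 2 of the 3 belong to inward rectifiers. Kcnj12 had -0.43 ± 0.13 (edgeR, p = 0.00245, adjusted p = 0.477), Kcna5 -0.74 ± 0.30 and Kcnj2 -0.54 ± 0.23. Kcnab1 and Kcna4 were next, with -0.42 ± 0.22 and -0.26 ± 0.14. In males, 0 members passed and 0 had an unadjusted p under 0.05 (0.0% and 1.65% of all genes; 0 passed by DESeq2 and by limma-voom). Kcns1 had -0.38 ± 0.22, Kcna2 0.43 ± 0.40, Kcne4 -0.24 ± 0.22, Kcnk6 -0.19 ± 0.18 and Kcna1 0.23 ± 0.21. The median slope of the members was -0.095 in females and 0.029 in males. With the run as a covariate the members at that p numbered 2 in all animals, 7 in females and 0 in males, against 4.15%, 9.33% and 1.39% of genes, none passed after adjustment (edgeR), and the slope of Kcnab1 in females was -0.73.

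Week 1 preference gave 0 members past the threshold in all animals (0.0306% of genes), in females (0.0%) and in males (0.0368%), with edgeR, DESeq2 and limma-voom alike. At an unadjusted p under 0.05 the edgeR counts were 1, 0 and 1, against 3.25%, 2.26% and 5.17% of all genes. The 1 member was Kcnj14, an inward rectifier, with -0.25 ± 0.12 in all animals (edgeR, adjusted p = 0.9999) and -0.33 ± 0.14 in males. With the run as a covariate the counts were 1, 0 and 3, against 2.55%, 3.78% and 5.1% of genes. In all animals Kcnip2, Kcnb2, Kcnc2 and Kcna5 followed, with -0.22 ± 0.12, 0.16 ± 0.10, 0.16 ± 0.10 and -0.33 ± 0.23. In females the 5 smallest p-values were those of Kcnab2 (0.21 ± 0.11), Kcna5 (-0.56 ± 0.33), Kcnip2 (-0.24 ± 0.15), Kcnd2 (-0.25 ± 0.16) and Kcnab1 (-0.35 ± 0.24). In males Kcnip4, Kcns1, Kcnb2 and Kcna3 followed Kcnj14, with 0.21 ± 0.11, -0.34 ± 0.19, 0.26 ± 0.15 and 0.69 ± 0.44.

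With week 13 preference in all animals, 0 members passed (0.0% of genes; 0 by DESeq2 and by limma-voom). Kcnip1, Kcnab3 and Kcnip4, auxiliary subunits all, had an unadjusted p under 0.05, or 4.48% of members against 6.0% of genes, all 3 with slopes below 0, as 2.2% of genes had. Their slopes were -0.27 ± 0.11, -0.36 ± 0.15 and -0.14 ± 0.07 (edgeR, adjusted p = 0.664, 0.683 and 0.798). Kcne1l and Kcnj5 had -0.28 ± 0.16 and -0.40 ± 0.23.

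The lowest adjusted p of a member in the 12 comparisons came from week 13 preference in females and belonged to Kcnab1 (chr3:65109384-65378223, GRCm38). Kcnab1 ran from 74.9 to 150.2 CPM (median 112) in the 10 females with a week 13 preference of at least 0.5, and 95.0 to 336 CPM (median 137) in the other 33. The 2 ranges overlap, and the higher maximum is that of the larger group. Its slope was -0.52 ± 0.16 with a 95% interval of -0.84 to -0.21 (edgeR, p = 0.00195, adjusted p = 0.117). The adjusted p lay just under 0.05 in 2 alternatives: DESeq2 gave -0.53 ± 0.15 with an adjusted p of 0.0495, and edgeR with the run as a covariate -0.72 ± 0.15 with 0.0498, a fit that called 0.147% of genes, while limma-voom gave -0.46 ± 0.15 with 0.413. Over all 8 alternatives the adjusted p ran from 0.0495 to 0.9996. The highest came without the libraries of highest choroid plexus score, where the slope was -0.57 ± 0.17. Of the 5 such libraries over both sexes, only female replicates 17 and 38 are from females, so this fit left out just those.

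**Figure D4:**
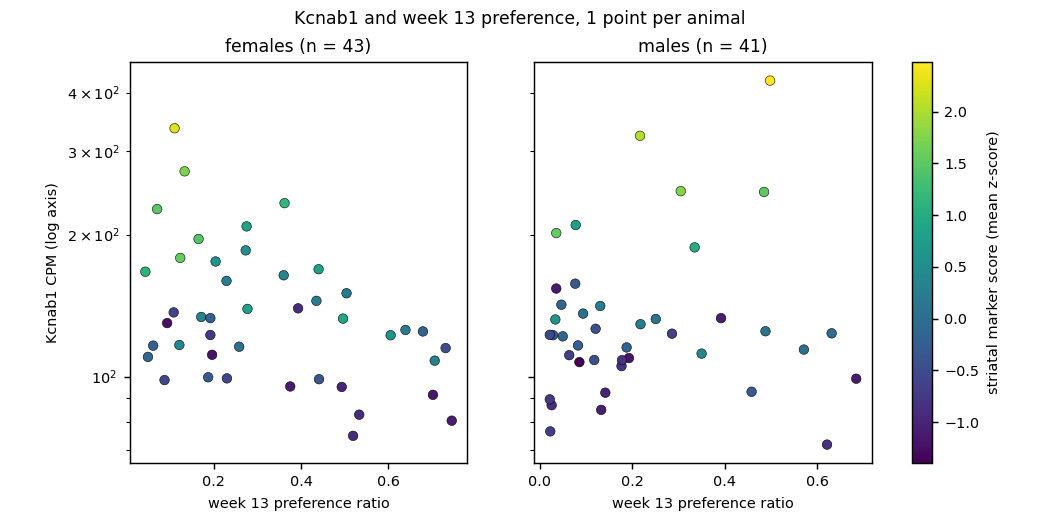
Kcnab1 CPM on a log axis against week 13 preference ratio, 1 point per animal, females on the left and males on the right, coloured by the striatal marker score. Females of high preference lie between 74.9 and 150.2 CPM, and in both sexes the highest points lie under a preference of 0.5.

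Among females, 0 members passed by edgeR with week 13 preference (0.0368% of genes), 1 by DESeq2, which called 1.26% of genes, and 0 by limma-voom. An unadjusted p under 0.05 was reached by 9 members, or 13.4%, all with slopes below 0, against 8.67% of all genes and 3.15% with slopes below 0. With limma-voom the count was 5 of 67, against 7.21% of genes, and with the run as a covariate 8 of 67, against 11.2%. With ethanol intake in place of preference it was 8 of 67, against 12.6%. In these 3 fits the share of members lay close to that of all genes. Without female replicates 17 and 38, of high choroid plexus score, it was 6 of 67, against 3.96%. After Kcnab1, the 9 of the main edgeR fit included the alpha subunits Kcna4 (-0.28 ± 0.10), Kcnd2 (-0.31 ± 0.12) and Kcna5 (-0.57 ± 0.24). The others were the rectifiers Kcnj12 (-0.28 ± 0.11) and Kcnj2 (-0.42 ± 0.17), the KChIPs Kcnip2 (-0.24 ± 0.11) and Kcnip4 (-0.18 ± 0.09), and Kcnab3 (-0.46 ± 0.21). Slopes were below 0 for 43 of 67 members, while 49.5% of all genes had slopes above 0. Members with slopes above 0 numbered 24 in this fit and 20 to 29 over the alternatives. The count was 29 both with the run as a covariate and with ethanol intake in place of preference. The counts by family are those of the main edgeR fit. By family, slopes were below 0 for 3 of 3 beta subunits, 4 of 4 KChIPs and 8 of 9 inward rectifiers, and for 3 of 8 silent subunits and 4 of 9 leak channels. They were also below 0 for 4 of 6 Kv1 genes, 2 of 3 Kv4 genes, 5 of 7 EAG, ERG and ELK genes and 2 of 2 KCNE genes. The other families are not given here. The median was -0.070 over members and -0.0013 over all genes.

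Kcna4 ran from 17.2 to 28.3 CPM (median 23.9) in the 10 females with a week 13 preference of at least 0.5, and 15.0 to 51.0 CPM (median 26.8) in the other 33. Kcnd2 ran from 63.7 to 132 CPM (median 102) in the 10 females with a week 13 preference of at least 0.5, and 67.6 to 204.2 CPM (median 116) in the other 33, and Kcnj12 from 5.66 to 11.9 CPM (median 9.79) in the 10 females with a week 13 preference of at least 0.5, and 6.20 to 14.3 CPM (median 11.6) in the other 33. For all 3 genes the median was lower at high preference and the groups overlapped.

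Marker scores are set beside these slopes. None of the 90 relations of a score with preference passed after adjustment. In females the striatal score had r = -0.317 with week 13 preference (permutation p = 0.0387, adjusted p = 0.721 over 90 relations; rho = -0.274, p = 0.0766, adjusted p = 0.568), r = -0.251 without the 2 animals of most extreme score, and -0.733 to -0.007 within the 4 runs. In males r was 0.184 (permutation p = 0.25, adjusted p = 0.751; rho = 0.186), and -0.142 to 0.513 within runs. The CeA score in females had r = -0.293 (permutation p = 0.0574, adjusted p = 0.721; rho = -0.303, p = 0.0487, adjusted p = 0.568), r = -0.404 without the 2 most extreme animals, and -0.908 to -0.215 within runs. The choroid plexus score, which has a gap, split the females too: the 27 females under the gap had a median week 13 preference of 0.192 and the 16 over it 0.378. Within these clusters r was 0.179 (permutation p = 0.373, adjusted p = 0.746; rho = 0.0623) and 0.461 (permutation p = 0.0725, adjusted p = 0.29; rho = 0.409), and without the 2 most extreme females of each 0.0208 and 0.278. The part of these markers in the slopes was not tested beyond the fits given here. With the striatal and cortical scores as covariates, 1 member in place of 9 had an unadjusted p under 0.05, or 1.49%, against 7.76% of all genes in that fit. Kcnab1 then had -0.20 ± 0.09 (edgeR, adjusted p = 0.553), Kcna4 -0.15 ± 0.09, Kcnd2 -0.08 ± 0.07 and Kcna5 0.03 ± 0.15, on the other side of 0. All 12 measured striatal markers entered the score; Drd2 ran from 1.63 to 144 CPM and Adora2a from 1.37 to 436 CPM over all libraries.

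**Figure D5:**
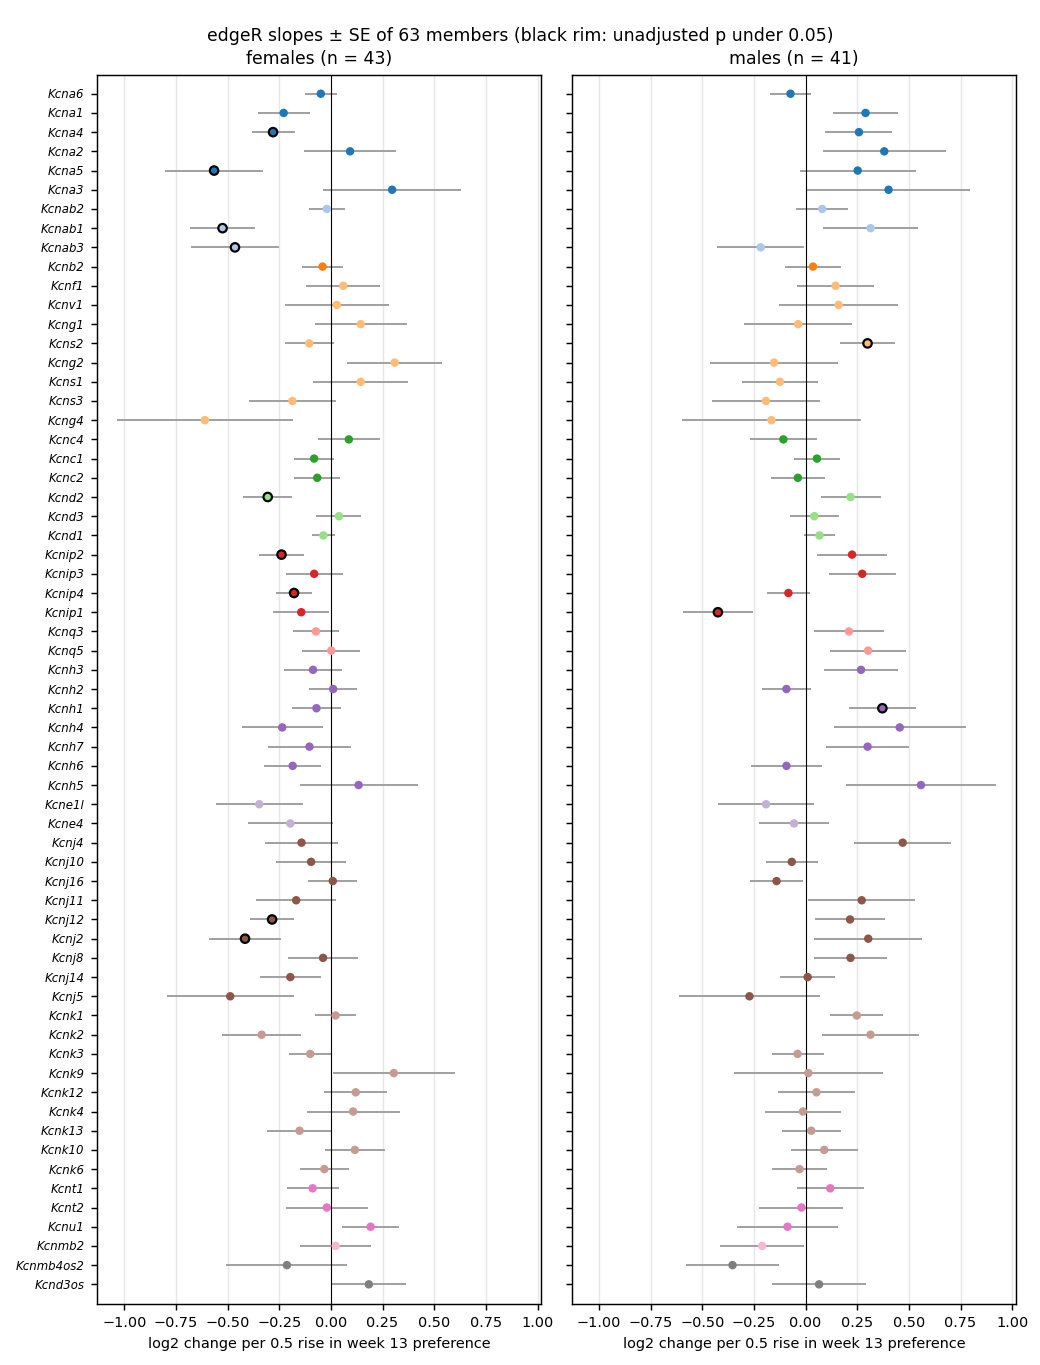
Slope on week 13 preference of 63 members in females (left) and males (right), as log2 change per 0.5 rise with a bar of 1 SE, coloured by family, with a black rim at an unadjusted p under 0.05. The 9 rimmed points in females all lie below 0, and of the 3 in males Kcnip1 lies below 0 and Kcnh1 and Kcns2 above.

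In males, 0 members passed with week 13 preference (0.0% of genes; 0 by DESeq2 and by limma-voom), and 3 had an unadjusted p under 0.05, or 4.48%, against 3.74% of genes. Kcnip1 had -0.42 ± 0.17 (edgeR, adjusted p = 0.984), the EAG channel Kcnh1 0.37 ± 0.16 and the silent subunit Kcns2 0.30 ± 0.13, and Kcnj4 and Kcnk1 followed with 0.47 ± 0.23 and 0.25 ± 0.13. Kcnab1 had 0.31 ± 0.23. It ran from 71.7 to 124 CPM (median 106) in the 4 males with a week 13 preference of at least 0.5, and 76.5 to 424 CPM (median 123) in the other 37. The slope is above 0 although the median of the 4 is the lower one, and the groups overlap.

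Whether the slopes differ between the sexes was tested as an interaction, coded as the male minus the female slope. With mean preference 0 members passed (0.0% of genes; 0 by DESeq2 and by limma-voom) and 1, or 1.49%, had an unadjusted p under 0.05, against 3.24% of genes. It was Kcnj12, with 0.54 ± 0.25 (edgeR, adjusted p = 0.9993), followed by Kcnd2 (0.43 ± 0.25), Kcnj5 (0.89 ± 0.57), Kcna1 (0.40 ± 0.27) and Kcns2 (0.33 ± 0.24). With week 13 preference, a term added after the slopes in each sex were seen, 0 members passed (0.00613% of genes; 0 by DESeq2 and by limma-voom). At an unadjusted p under 0.05 there were 12, or 17.9%, all above 0, against 6.23% of genes and 3.4% above 0. Kcnab1 had 0.83 ± 0.28 (95% interval 0.28 to 1.38; edgeR, adjusted p = 0.592), and Kcna4, Kcnd2, Kcnj12 and Kcna1 had 0.53 ± 0.19, 0.52 ± 0.19, 0.50 ± 0.20 and 0.51 ± 0.20. With limma-voom the 12 became 6, against 5.26% of genes, and with the run as a covariate they numbered 12, against 8.41%. With both scores as covariates they became 2, or 2.99%, and the share of all genes 2.94%.

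The sexes themselves were also compared. By edgeR, DESeq2 and limma-voom 0 members differed (0.0919% of genes by edgeR), and 2, or 2.99%, had an unadjusted p under 0.05 against 3.81% of genes, as 2 had with the run as a covariate. Kcnmb4os2 ran from 1.20 to 10.9 CPM with a median of 2.88 in females and 0.861 to 6.04 CPM with a median of 2.91 in males, a male minus female difference of -0.32 ± 0.15 on the log2 scale (edgeR, adjusted p = 0.986). Kcnk10 ran from 1.22 to 4.02 CPM with a median of 2.60 in females and 1.53 to 5.17 CPM with a median of 2.82 in males, a difference of 0.18 ± 0.09. In both genes the ranges of the sexes overlapped. The female and male medians of Kcnmb4os2 were nearly equal, and its fitted difference, which rests on means, has the opposite sign. Kcns2, Kcnu1 and Kcnk9 had 0.13 ± 0.07, -0.18 ± 0.11 and 0.30 ± 0.19.

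The channels' partners were read from a list of 26 genes, all tested: subunits and anchors such as Dpp6 and Dpp10 of Kv4 channels, Cntnap2 and Adam22 and Adam23 of axonal Kv1 complexes, the scaffolds Dlg1, Dlg2 and Dlg4, and the HCN pacemaker channels. In all 12 comparisons 0 of them passed by edgeR. With week 13 preference in females 3 had an unadjusted p under 0.05, or 11.5%, all below 0, beside 8.67% of all genes and 3.15% with slopes below 0. They were Adam23 with -0.30 ± 0.10 (edgeR, adjusted p = 0.197), the anchoring protein gene Akap5 with -0.29 ± 0.12, and Hcn2 with -0.33 ± 0.15. Of the 26 slopes 21 were below 0, while 49.5% of all genes had slopes above 0. In the interaction of sex with week 13 preference, Adam23, Dlg1 and Akap5 had 0.49 ± 0.16, 0.31 ± 0.12 and 0.58 ± 0.23, none passing after adjustment.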

How the data were processed

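Each library came from laser-dissected CeA tissue of 1 mouse. The authors deposited whole-number read counts per gene, which were used as deposited. The submitters' processing notes name FastQC, STAR, featureCounts 1.6.0 from Subread, DESeq2 and build GRCm38 (mm10), with no roles given. The library kit was stranded, per the labels' protocols, and the strand setting of the counting is not given in the sources used here. Up to 3 animals came from a family and 6 libraries shared a lane, but neither is given per animal. All tests therefore treated the animals as independent, and with related animals or shared lanes the p-values may be too small. Of the table's other columns, 3 hold undetermined reads and 5 are empty, and none of these 8 was used.

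Counts were TMM-scaled and fitted with edgeR 4.0.16 (robust quasi-likelihood) in R 4.3.3, after edgeR's filter by sex (at least 10 counts, 15 in total), which left 16320 genes, all 67 members among them. Slopes are per 0.5 of preference, or per 10 g/kg of intake. P-values were Benjamini-Hochberg adjusted at 0.05 over all genes. DESeq2 1.42.0, limma-voom (limma 3.58.1), RLE scaling, no filter, the run, marker scores or intake in the model, and leaving out libraries were alternatives. Correlations used log2 CPM with a prior count of 2 and 100000 permutations. On simulated counts for week 13 preference in females, over 16320 genes, 90% of slopes of 1 and 97% of slopes of 2 were called; for mean preference in males these were 85% and 95%, and for sex by mean preference 75% and 89%. Smaller slopes, such as those of the members, were not simulated. The slopes were put into genes drawn from all those with an average log2 CPM above 1, not into the members. Low members such as Kcnd3os, with a median of 1.12 CPM, lie under that level, so these shares do not describe them.

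The members and gene lists were chosen with earlier results of these data known. By the rule any member could be named for level and role, and named were the 5 smallest p-values of each comparison, the 5 largest and 5 smallest spreads and members with a library over 4 times the median, the 3 largest r for each marker list, the 5 closest pairs, members within 0.25 CPM of the threshold, and the 2 partner genes of smallest p. Members and partners named beyond that rule, such as the other members with an unadjusted p under 0.05, Kcnj8 and neighbouring pairs, were chosen after their values were seen. The sex by week 13 term and the splits of the cortical and choroid plexus scores, with preference too, were added after seeing the data. Of the 67 members, 4 are counted in the totals but not reported singly here.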

Additional observations from a re-analysis of the deposited data

How the results depend on the processing

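Under the alternatives all but 2 of the counts of called members were unchanged, and 522 slopes of named members kept their direction and their side of the threshold, with 3 exceptions, those of Kcnab1 (2) and Kcna5 (1) given here. The 2 counts that moved were both for week 13 preference in females, where DESeq2 and edgeR with the run as a covariate each called 1 member in place of 0. It was Kcnab1 in both, with -0.53 ± 0.15 (DESeq2, adjusted p = 0.0495) and -0.72 ± 0.15 (edgeR, adjusted p = 0.0498), and the cause was not tested. The Kcna5 slope there turned to 0.0267 ± 0.15 with the striatal and cortical scores as covariates (edgeR, adjusted p = 0.9965), and the cause was not tested. Leaving out each animal in turn, with limma-voom, gave 0 members called at the lowest and 0 at the highest in every comparison; limma-voom called 0 with all animals too, so this says nothing of the Kcnab1 calls by DESeq2 and with the run, for which no animal was left out in turn. Marker relations that passed by Pearson's test numbered 364, 368 with run means removed and 365 with a median score, and pairs 1067, 1078 and 1071. No paired analysis was possible because the replicate numbers were given in listing order only and pair no animals. Every member had a count in every library, and the median SE of the members' slopes with mean preference in all animals was 0.149.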
